A study of Mus musculus with 2 samples.

Results

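The mouse miR-29 family, with its members mmu-miR-29a-3p, mmu-miR-29b-3p and lastly mmu-miR-29c-3p (written below without the species prefix), is a group of miRNAs with 1 seed, and its levels were compared in whole femurs after ovariectomy (OVX) and after a sham operation. The members were taken by name from the miRNA spots of a single-colour Agilent mouse miRNA array, and all 3 of the 3 were found among the 1881 miRNAs on it. They were read by 6 probes, printed as 90 spots on each array. The OVX group was 1 RNA sample pooled from 4 wild-type female mice of C57BL/6 background aged 9 months, whose ovaries had been removed, and the sham group was 1 pool of 4 such mice after sham surgery. Each femur was homogenised with its marrow, so the RNA comes from blood-forming cells, vessels, bone and cartilage together, and more RNA per cell cannot be told apart from more cells of a type. The time between surgery and collection is not given in the sources used here. With 1 array per group there was no replicate check, no test was made, and "higher" and "lower" describe these 2 arrays.

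A miRNA guides the silencing machinery to messenger RNAs that pair with its seed, the stretch from base 2 to base 8. The miR-29 family is best known for silencing messages of the extracellular matrix, among them fibrillar and basement-membrane collagens, elastin and osteonectin (Sparc), and it is low in many fibrotic tissues. In cultured osteoblasts, the cells that lay down bone, it is reported to rise during differentiation and to silence inhibitors of that process, such as antagonists of Wnt signalling, and it has also been reported to act in osteoclast precursors, the cells that become bone-resorbing osteoclasts.

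The mature sequences are shown because they carry both what the family shares and what the array has to tell apart. They come from RefSeq (GRCm38.p6), with the seed in capitals and all written 5′ to 3′, and each of the members matched an entry there.
miR-29a-3p: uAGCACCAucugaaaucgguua
miR-29b-3p: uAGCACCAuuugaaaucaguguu
miR-29c-3p: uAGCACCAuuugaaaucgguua
The seed AGCACCA was identical in all 3. Of the 1608 array miRNAs with a RefSeq mature sequence, these 3 were the ones with it, and miR-3102-3p shared bases 2 to 7. Counted from 1 at the 5′ end, miR-29a-3p and miR-29c-3p differed by a single base, C10U. From miR-29a-3p to miR-29b-3p the changes were C10U, G18A, U21G and A22U, and miR-29b-3p is 23 bases long against 22 for the other members. From miR-29b-3p to miR-29c-3p they were A18G, G21U and U22A. All of these positions lie outside the seed.

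These 3 miRNAs are made from 4 hairpin genes. Mir29a and Mir29b-1 lie next to each other on the minus strand of chromosome 6, outside any other RefSeq gene, and Mir29b-2 and Mir29c lie next to each other on the plus strand of chromosome 1, within the long non-coding RNA gene A330023F24Rik. Mature miR-29b-3p is the same molecule from both pairs, so its signal cannot be assigned to either. In the files' build, mm9, the miR-29a-3p probes match chr6:31012716-31012734, the miR-29c-3p probes match chr1:196863795-196863815, and the miR-29b-3p probes match both chr1:196863287-196863307 and chr6:31013071-31013091. The listed matches of miR-29a-3p and miR-29c-3p span 1 base less than the probes.

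The 6 probes differ by 1 base in length within a member. Each pairs up to the 3′ end of its miRNA, starting at base 4 or 3 for miR-29a-3p and miR-29b-3p and at base 2 or 1 for miR-29c-3p. They are given here 5′ to 3′ as the scanner files list them, with capitals at each base that faces a position where another member differs.
miR-29a-3p, 19 bases: TAacCgatttcaGatggtg
miR-29a-3p, 20 bases: TAacCgatttcaGatggtgc
miR-29b-3p, 20 bases: AACacTgatttcaAatggtg
miR-29b-3p, 21 bases: AACacTgatttcaAatggtgc
miR-29c-3p, 21 bases: TAacCgatttcaAatggtgct
miR-29c-3p, 22 bases: TAacCgatttcaAatggtgcta
Against miR-29c-3p, each miR-29a-3p probe had 1 mismatch, and so had each miR-29c-3p probe against miR-29a-3p. The miR-29b-3p probes had 5 mismatched or unpaired positions against miR-29a-3p and 4 against miR-29c-3p. How much of one member's RNA bound the probes of another was not tested.

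All 1881 miRNAs share the limits of this pair of arrays. On the OVX array 299 miRNAs were present, against 202 on the sham array, where present means that over 50% of the unflagged spots of a probe were well above background. Present on the OVX array only were 102 miRNAs, and on the sham array only 5. The shares of the 197 given below leave them out. There were 197 miRNAs measured by the same probe on both arrays, with 350 probes. The OVX array was brighter, by a factor of 2.02 at the 75th percentile of those probes. That percentile was 260.6 signal units on the OVX array and 129.2 on the sham array. Levels below are log2 signals minus that percentile, so differences are log2 OVX minus sham relative to the other miRNAs. Over the 197 miRNAs the differences had a median of -0.04, quartiles of -0.36 and 0.28 and an SD of 0.52. The negative control spots had signals of 1.36 ± 2.86 on the OVX array (SD between 978 spots) and 1.93 ± 2.81 on the sham array (SD between 982 spots). The errors given are between spots of an array, are technical, and hold no variation between mice.

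All 3 members were higher in the OVX pool with this scaling. miR-29c-3p was 1.86-fold (log2 0.90, spot SE 0.05), miR-29b-3p 1.85-fold (log2 0.89, spot SE 0.08) and miR-29a-3p 1.31-fold (log2 0.39, spot SE 0.03). Thus 3 of 3 were above 0, where 47.2% of the 197 were, 2 of 3 were at least 1.5-fold higher, where 11.2% of the 197 were, and 0 of 3 reached 2-fold, where 2.03% did. Ordered from the highest difference, miR-29c-3p was at rank 8, miR-29b-3p at rank 9 and miR-29a-3p at rank 35 of 197. The median of the members was 0.89, beside the median of -0.04 over all 197. Among the 29 miRNAs with probes under 40% G and C, which include miR-29b-3p and miR-29c-3p, larger shares passed. Of those 29, 25 were above 0 and 11 at least 1.5-fold higher, with a median of 0.55.

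miR-29a-3p was read by both of its probes far above the background of each array. Its 20-base probe gave 1108, 1154 and 1215 signal units (lowest, median and highest of 13 spots) on the OVX array, against 395.0, 429.0 and 447.2 (14 spots) on the sham array. The spots of the 2 arrays did not overlap, but these are unscaled signals and the OVX array was brighter by a factor of 2.02. How many of all 350 probes show the same was not counted. The spot SD of the 20-base probe was 2.72% of the mean on the OVX array and 3.37% on the sham array. This made it the most tightly read probe of the family. The 19-base probe gave 341.0, 398.7 and 445.1 on the OVX array and 116.6, 155.5 and 175.9 on the sham array, over 14 spots each. Unscaled, the OVX signal was 2.72-fold the sham signal for the 20-base probe and 2.58-fold for the 19-base probe. After scaling their differences were 0.43 (spot SE 0.02) and 0.35 (spot SE 0.05), so the probes of miR-29a-3p agree within 0.08, close to the median of 0.09 between the highest and lowest probe of the 139 miRNAs with more than 1 measured probe.

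miR-29b-3p, the member made by 2 gene pairs, rested on 1 of its 2 probes. The 21-base probe had 185.9, 375.8 and 412.0 signal units (lowest, median and highest of 15 spots) on the OVX array, against 71.9, 96.7 and 109.5 (14 spots) on the sham array. Before scaling for the brighter OVX array, no OVX spot was as low as the highest sham spot, and the signal was 3.74-fold. After scaling by the factor of 2.02, the lowest OVX spot fell below the highest sham spot. The share of all measured probes without overlap was not counted. The lowest OVX spot lay in the first row of the array, and the sham spot at the same place, 24.1, carried an outlier flag and was left out. Without that place on both arrays, an alternative chosen after seeing the data, the scaled difference of miR-29b-3p was 0.94 in place of 0.89.

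The shorter, 20-base probe of miR-29b-3p was well above background in the OVX pool only. It gave 25.3, 33.1 and 39.6 signal units over 13 OVX spots and 1.27, 7.98 and 13.7 over 15 sham spots, where 0 of the spots were well above background. Its groups of spots did not overlap, again before scaling for the brighter OVX array, and after scaling they did. The sham side has only a bound, 17.8 units, the lowest mean signal of any probe well above background on that array. The unscaled OVX signal was therefore at least 1.86-fold higher. After scaling the bound was -0.12 on the log2 scale, which is under 1-fold, so no scaled fold is given.

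miR-29c-3p was read from dim signals on the sham array, with probe means of 27.7 and 32.0 units, and its 2 probes gave nearly the same difference. Its 22-base probe gave 112.1, 119.4 and 130.9 units over 13 OVX spots, against 24.8, 32.0 and 39.7 over 14 sham spots. Its 21-base probe gave 88.5, 99.95 and 120.5 units on the OVX array and 17.8, 27.9 and 37.9 on the sham array, over 15 spots each, with 1 sham spot not well above background. Neither probe had spots that overlapped between the arrays before scaling, and the share of all measured probes without overlap was not counted. The unscaled ratios were 3.77-fold and 3.75-fold and the scaled differences 0.90 (spot SE 0.05) and 0.89 (spot SE 0.09), so the pair agreed to the first decimal. The spot SD on the sham array was 13.1% and 22.1% of the mean, against 5.07% and 9.27% on the OVX array.

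**Figure D1:**
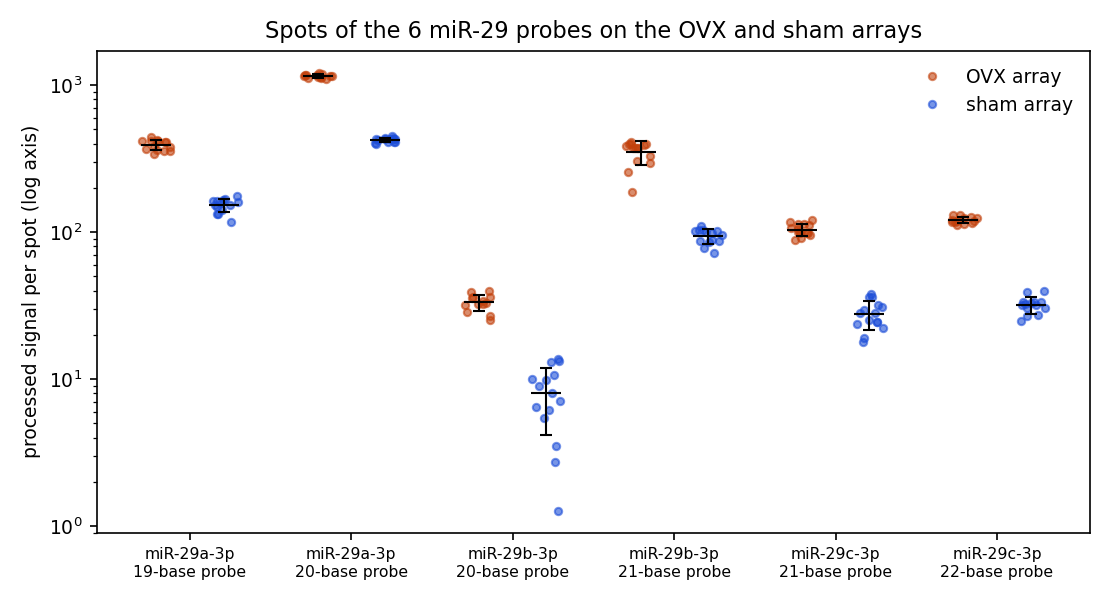
Processed signal of each unflagged spot (log axis) for the 6 miR-29 probes, with the OVX array left and the sham array right of each pair; black bars are the mean and SD between spots. In every pair the OVX spots lie above the sham spots, before scaling for the brighter OVX array. After scaling by the factor of 2.02, the spots overlap for both probes of miR-29b-3p and for the 19-base probe of miR-29a-3p. The 20-base probe of miR-29b-3p falls to a mean of 8.02 units on the sham array.

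The 2 arrays carry the same layout, so spots can also be paired by place. At 67 places, over the 5 probes measured on both arrays, the OVX spot was brighter at 67. That count is unscaled, and without scaling 193 of all 197 miRNAs were above 0, so it is not particular to the family. After scaling the difference was above 0 at 66 of the 67 places, and the exception, at -0.0033, belonged to the 19-base probe of miR-29a-3p. Places were not counted for the probes of other miRNAs. At least 1.5-fold was reached at 14 of 14 places for miR-29b-3p, at 24 of 27 for miR-29c-3p and at 1 of 26 for miR-29a-3p. Places on an array share its RNA and labelling, so these counts describe the precision of the reading, not of the condition.

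The members differed among themselves in how far apart the 2 pools were. The difference of miR-29c-3p exceeded that of miR-29a-3p by 0.50 (spot SE 0.06), and that of miR-29b-3p exceeded it by 0.50 (spot SE 0.09), a ratio of 1.42 and 1.41. Between miR-29c-3p and miR-29b-3p it was 0.01 (spot SE 0.10). These contrasts between members are taken within the arrays, so a constant scaling leaves them as they are. The pooled SD between probes of 1 miRNA was 0.11, so the gap from miR-29a-3p was larger than the disagreement of probes. It was not larger than the spread of miRNAs in general, whose interquartile range was 0.64. Other settings moved these contrasts. With normexp background correction, which adds 50 units to every signal, that of miR-29c-3p with miR-29a-3p was -0.29 and that of miR-29b-3p with miR-29a-3p was 0.19. With quantile normalization they were 0.33 and 0.32, and they were 0.21 and 0.35 in the authors' deposited value table. The contrast of miR-29b-3p with miR-29a-3p was -0.01 with every probe kept and dim signals set to a floor, and -2.23 with the scanner files' summary signal per miRNA.

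**Figure D2:**
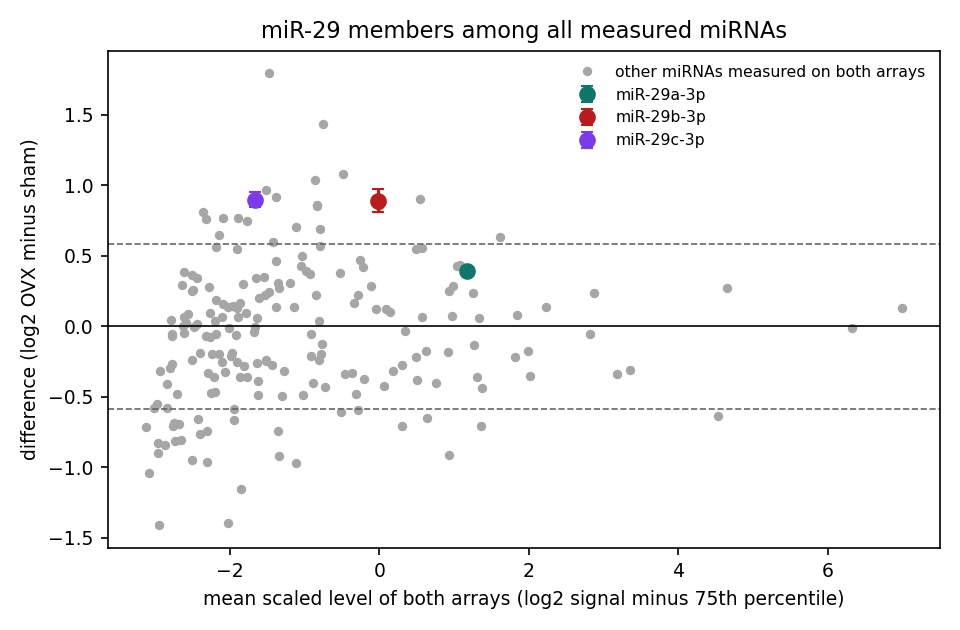
Difference (log2 OVX minus sham) against the mean scaled level of the 197 miRNAs measured on both arrays; error bars on the miR-29 members are spot SE, dashed lines mark 1.5-fold. miR-29b-3p and miR-29c-3p lie above the upper line at 0.89 and 0.90 and miR-29a-3p lies between the lines at 0.39.

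The opposite arms of the 4 hairpins gave no signal on either array. These are the 5p strands, cut from the same precursors and usually degraded, and they are shown because they do not carry the family seed (their own bases 2 to 8 are in capitals).
miR-29a-5p: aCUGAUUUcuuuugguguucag
miR-29b-1-5p: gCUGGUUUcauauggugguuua
miR-29b-2-5p: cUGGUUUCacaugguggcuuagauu
miR-29c-5p: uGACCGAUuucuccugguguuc
Of their 12 probes, 0 were well above background on either array. Mean signals per probe ran from -2.51 to 4.29 units on the OVX array and from -2.40 to 2.83 on the sham array, within the range of the negative controls, and the highest single spots were 10.5 and 9.83. miR-29b-1-5p and miR-29b-2-5p could have told the 2 sources of miR-29b-3p apart, but neither was detectable, so the share of each gene pair was not measurable here. The strands of miR-29 that were measured on these arrays were all 3p strands. miR-3102-3p, which shares 6 of the 7 seed bases, had probe signals of 12.6 and 12.8 units on the OVX array and 5.27 and 4.82 on the sham array, and was not well above background on either.

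Differences on these arrays varied with the base composition of the probes. Across the 350 probes measured on both arrays, the difference fell by 0.11 for each 10 percentage points of G and C (Spearman's rho -0.31, a description across probes that share 2 arrays). The probe of miR-29b-3p measured on both arrays had 38.1% G and C and those of miR-29c-3p averaged 37.2%. Those of miR-29a-3p averaged 43.6%. Of the 29 miRNAs with probes under 40% G and C, 25 were above 0 and 11 at least 1.5-fold higher, with a median of 0.55, and of the 93 between 40% and 60%, 43 were above 0, with a median of -0.06. As reported, miR-29b-3p (0.89) and miR-29c-3p (0.90) were above the upper quartile of 0.76 for miRNAs under 40%. miR-29a-3p (0.39) was above the upper quartile of 0.25 for those between 40% and 60%. With the linear trend removed, miR-29b-3p was at 0.70, miR-29c-3p at 0.69 and miR-29a-3p at 0.26. All were above the median of all miRNAs in that setting, -0.02. The contrasts with miR-29a-3p fell only from 0.50 to 0.43 for both. The medians of 0.55 and -0.06 lie further apart than these contrasts, and no correction by group of base composition was made. The part of base composition in the remaining differences was not tested.

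**Figure D3:**
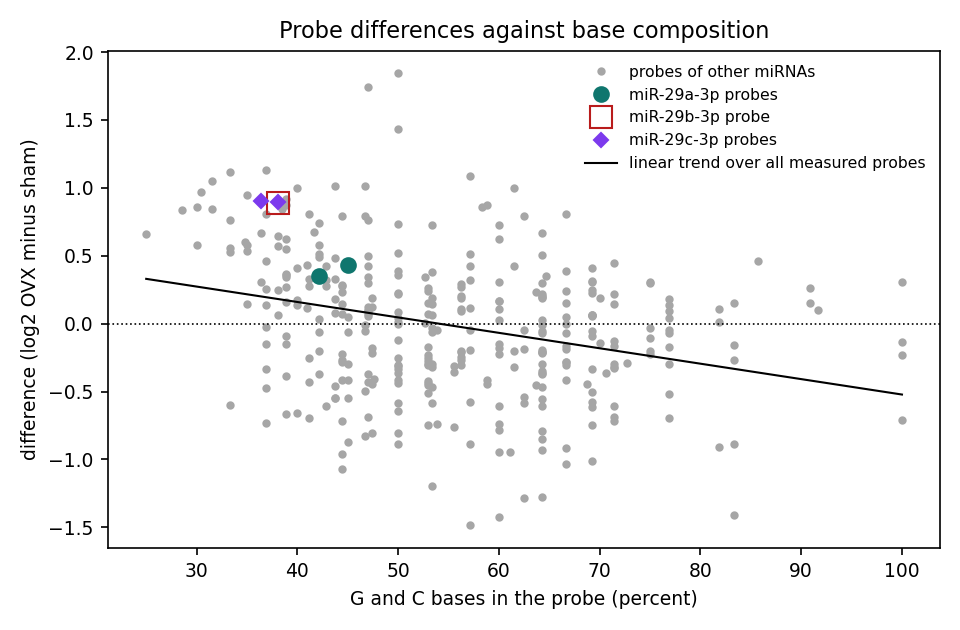
Difference (log2 OVX minus sham) of the 350 probes measured on both arrays against the percentage of G and C bases in the probe, with the linear trend over all of them. The miR-29 probes lie at the low end of the axis and above the line, those of miR-29b-3p and miR-29c-3p at 0.89 to 0.90 and those of miR-29a-3p at 0.35 and 0.43.

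How far the members stood from 0 depended on the scaling of the arrays, while their place among the other miRNAs did not under a constant scaling. Without scaling the differences were 1.91 for miR-29c-3p, 1.90 for miR-29b-3p and 1.41 for miR-29a-3p, where the median of all was 0.97 and 78.7% of miRNAs were at least 1.5-fold higher. With scaling to the control probes they were 1.57, 1.56 and 1.07, beside a median of 0.63. With median scaling they were 0.71, 0.70 and 0.21, beside a median of -0.23. Relative to the median of all, each of these gives 0.94 for miR-29c-3p, 0.93 for miR-29b-3p and 0.43 for miR-29a-3p. In the value table that the authors deposited, read with its row names moved by 1 row because the values follow the scanner files only then, the differences were 0.76, 0.90 and 0.55.

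The summary signal per miRNA in the scanner files reversed miR-29b-3p. That signal was 105.7 on the OVX array and 141.9 on the sham array, which gives -1.48 after scaling. The sum of the probe totals in the same files was 105.7 on the OVX array and 21.6 on the sham array, so on the sham array the summary departs from the probes it is made of. For miR-29c-3p (62.0 on the OVX array and 12.7 on the sham array) and miR-29a-3p (426.7 on the OVX array and 122.1 on the sham array) the summary equals the sum of the probes to the first decimal. In the authors' deposited value table miR-29b-3p is higher in OVX, with 6.03 in OVX and 5.13 in sham.

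**Figure D4:**
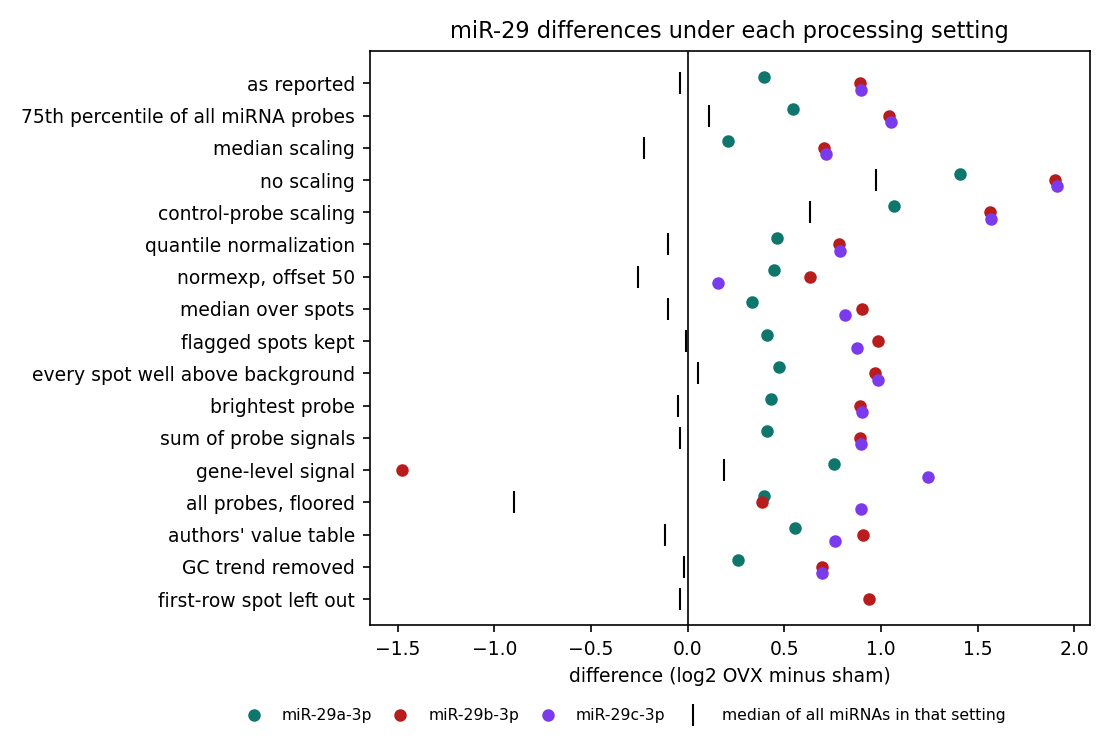
Difference (log2 OVX minus sham) of each miR-29 member under the reported setting and each alternative; black ticks mark the median of all miRNAs in that setting. Every point lies above its tick except miR-29b-3p with the gene-level signal, at -1.48.

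The miRNAs closest to each member in their pair of levels were named by a fixed distance rule, over 2 arrays only. Brightness depends on the probe, so closeness does not mean equal abundance. The rule uses both levels, so a close neighbour has a similar difference by construction, and that likeness is not a result. The nearest to miR-29b-3p was miR-144-3p, a miRNA of red-cell precursors, with levels of 0.42 in OVX and -0.44 in sham, against 0.42 and -0.46 for miR-29b-3p, a distance of 0.03. The nearest to miR-29c-3p were miR-32-3p (difference 0.75), miR-144-5p (0.97), the other arm of the red-cell hairpin, and the endothelial miR-126a-3p (0.77). The nearest to miR-29a-3p were miR-19b-3p (0.43) and miR-20a-5p (0.24), both of the miR-17-92 cluster, and miR-15a-5p (0.43). The next to miR-29b-3p, miR-466h-3p (0.42) and miR-20b-5p (0.28), were at distances of 0.43 and 0.45.

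Other miRNAs reported to favour osteoblasts went both ways. Of the 13 on that list 9 were measured, with 6 above 0, 3 of which are the miR-29 members, beside 47.2% of all 197. The median was 0.13 with the members and -0.12 over the other 6. miR-20a-5p (0.24), miR-3960 (0.13) and miR-322-5p (0.09) were above 0, and miR-2861, made from the same locus as miR-3960, (-0.71), miR-378a-3p (-0.69) and miR-15b-5p (-0.34) were below. Without scaling all of these were higher in OVX, since the array as a whole was brighter. The 2 lowest were dim, with brightest probes of 30.1 units in OVX and 24.4 in sham for miR-2861 and 36.1 and 27.9 for miR-378a-3p. The lowest probe means well above background were 19.3 units in OVX and 17.8 in sham. Of the 29 reported to restrain osteoblasts, 12 were measured, with 5 above 0 and 7 below, where 52.8% of all 197 were below, and a median of -0.23. The highest were miR-30e-5p (0.50) and miR-34a-5p (0.39) and the lowest miR-221-3p (-0.84) and miR-103-3p (-0.42). Dim among them were miR-221-3p, with a brightest probe of 33.1 units in OVX and 30.1 in sham, and miR-34a-5p, with 48.8 and 18.5. At least 1.5-fold lower were 1 of these 12, where 14.7% of all 197 were.

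On the list of 15 miRNAs reported to act in matrix and fibrosis, 6 were measured and 5 were above 0, where 47.2% of all 197 were, with a median of 0.29. A further 2, miR-101a-3p and miR-192-5p, were present in OVX only, 1, miR-133a-3p, in sham only, and 6 on neither array. Of all 1881 miRNAs, 102 were present in OVX only and 5 in sham only. Unscaled, the brightest probes gave 23.7 units in OVX and 4.72 in sham for miR-101a-3p, and 24.7 and 11.7 for miR-192-5p. For miR-133a-3p they gave 10.8 in OVX and 19.5 in sham. All of these are dim. miR-21a-5p, often raised in fibrotic tissue, was 1.87-fold (log2 0.90, spot SE 0.06) and was the only one of the 6 at least 1.5-fold higher, where 11.2% of all 197 were. Its signals came from probes of 38.4% G and C on average, close to those of miR-29b-3p. miR-19b-3p was at 0.43, and miR-30c-5p, which silences connective tissue growth factor, at -0.20. The stromal miRNAs miR-143-3p, miR-145a-5p, miR-199a-5p and miR-214-3p were well above background on neither array. The lists were drawn up with earlier results of these data known and their counts are descriptions.

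**Figure D5:**
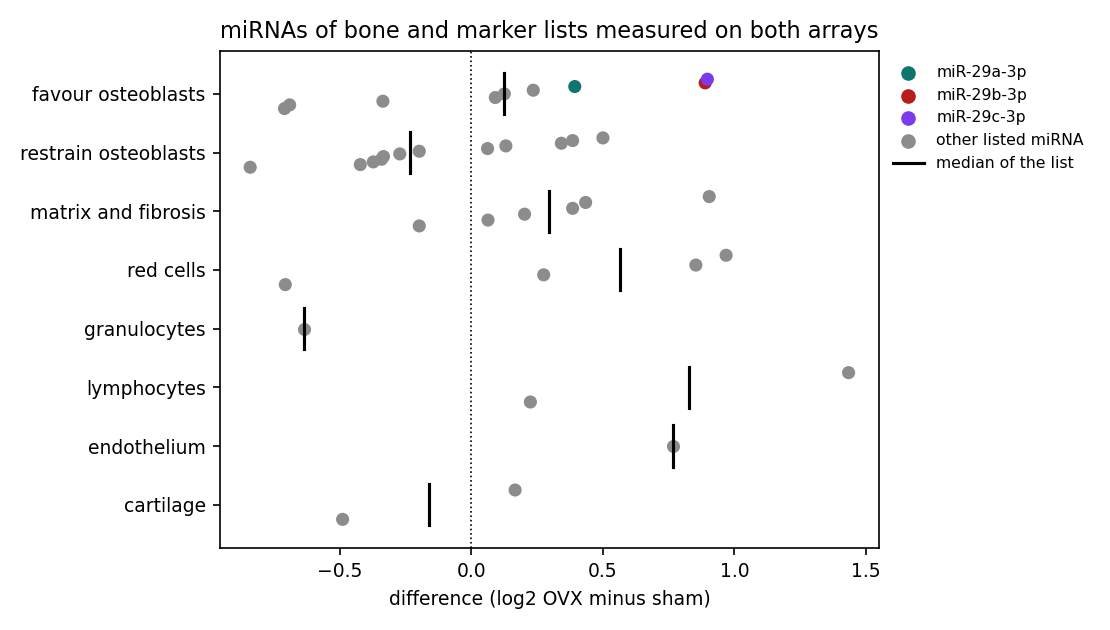
Difference (log2 OVX minus sham) of the measured miRNAs of each list, 1 row a list, with the list's median as a black bar. In the top row the miR-29 members are the 3 highest points, at 0.39, 0.89 and 0.90, and the other 6 lie between -0.71 and 0.24.

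Markers of cell types in the femur differed between the pools too. Of the 4 red-cell miRNAs all were measured, 3 above 0 (miR-144-5p 0.97, miR-144-3p 0.85, miR-451a 0.28) and miR-486a-5p below (-0.71). In that order their probes averaged 30.4%, 30.8%, 37.2% and 74.2% G and C. The part of base composition in the marker differences was not tested. The sum of the brightest probes of the red-cell miRNAs was 10843 units in OVX and 4420 in sham, 0.28 after scaling. Most of it was miR-451a, with 10036 units in OVX and 4031 in sham. The sums that follow, also for muscle, include probes not well above background. Of the 3 lymphocyte miRNAs 2 were measured, miR-150-5p (1.43) and miR-342-3p (0.22). miR-155-5p was present in OVX only, as were 102 of all 1881 miRNAs. Its brightest probe gave 38.3 units in OVX and 17.6 in sham, where the lowest probe mean well above background was 17.8. Those signals are unscaled, and the OVX array was brighter by a factor of 2.02. The sum of the 3 was 572.9 units in OVX and 181.97 in sham, 0.64 after scaling. The granulocyte miR-223-3p was at -0.63, with a sum for its 2 arms of 8211 units in OVX and 6211 in sham, -0.61 after scaling, and miR-223-5p was well above background on neither array. The endothelial miR-126a-3p was at 0.77, with a sum for its 2 arms of 112.5 units in OVX and 34.5 in sham, 0.69 after scaling, and miR-126a-5p was well above background on neither. Of the 4 cartilage miRNAs 2 were measured, miR-140-5p (0.17) and miR-140-3p (-0.49), with a sum of 296.0 units in OVX and 187.7 in sham, -0.36 after scaling, and both miR-455 arms were well above background on neither.

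Of the 4 muscle miRNAs, miR-133a-3p and miR-133b-3p were present in sham only and miR-1a-3p and miR-206-3p on neither array, with a sum of 45.9 units in OVX and 52.9 in sham. None of the 4 was well above background in OVX, so no scaled difference is given. Of all 1881 miRNAs, 5 were present in sham only. miR-122-5p, the liver miRNA, had 1.95 units in OVX and -1.18 in sham and was not detectable on either. The part of cell composition in the miR-29 differences was not tested.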

How the data were processed

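miRNA levels were measured in 2 pooled femur RNA samples, 1 OVX and 1 sham, on single-colour (Cy3) Agilent arrays. Per the labels' protocols, the RNA was labelled with a linear amplification kit for cRNA, which is not the usual labelling for miRNA arrays; its effect on the signals was not tested. The scanner files that the authors deposited give intensities per spot, with background subtracted and no normalization between arrays, per the file headers. Agilent Feature Extraction is version 10.7.1.1 in the file headers and 11.0.1.1 in the submitters' processing notes. The authors' deposited value table holds log2 values whose normalization, scale and centring are not given in the sources used here, with column medians of -3.32 (OVX) and -3.18 (sham), which are also their lowest values. Its row names were moved by 1 row, which raised the Spearman correlation with the scanner's summary signal to 0.99 for OVX, from 0.04, and to above 0.99 for sham, from 0.02.

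Outlier-flagged spots were excluded (2.90% of the miRNA spots on the OVX array and 2.75% on the sham array), and 0 miRNA spots were saturated. The mean processed intensity of each probe was put on the log2 scale, and the 75th percentile of the probes well above background in both samples was subtracted. Such probes of a miRNA were averaged, and their spot SE carries the variation among spots into the difference. The calculation was tested on simulated data, with a constant brightness factor and known changes. A common shift was taken out before the errors were judged, so an error of scaling could not show. The simulated data held no trend with base composition, no disagreement between probes and no variation between mice. The number of arrays limits the precision, and rules of size of 1.5-fold and 2-fold took the place of a test. Python 3.11.15, numpy 2.4.6, pandas 2.3.3 and, for normexp, limma 3.58.1 in R 4.3.3 were used. The miRNAs named were the members, their 5p arms, the 3 nearest to each member by level pair, and fixed lists. Members and lists were chosen with earlier results of these data known.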

Additional observations from a re-analysis of the deposited data

How the results depend on the processing

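The direction of all 3 members held under all 15 alternatives of the processing with 1 exception, miR-29b-3p, at -1.48 with the gene-level signal. Without scaling 193 of 197 miRNAs were above 0, and with control-probe scaling 174 of 197, so those settings say little about direction. The SD between spots was 0.14 for miR-29a-3p, 0.31 for miR-29b-3p and 0.28 for miR-29c-3p. A constant scaling shifts all 3 alike, so the same shift can pass that SD for miR-29a-3p alone. Staying within it is a looser rule for miR-29b-3p and miR-29c-3p. Values that moved by more than the SD between spots were, for miR-29a-3p, 0.54 (75th percentile of all miRNA probes), 0.21 (median scaling), 1.41 (no scaling), 1.07 (control-probe scaling), 0.75 (gene-level signal) and 0.55 (authors' value table). For miR-29b-3p they were 1.90 (no scaling), 1.56 (control-probe scaling) and 0.39 (all probes, dim signals floored, where the probe not above background in sham enters at its bound). For miR-29c-3p they were 1.91 (no scaling), 1.57 (control-probe scaling), 0.15 (normexp) and 1.24 (gene-level signal). The count of members at least 1.5-fold higher was 2 as reported, 1 with normexp, 1 with all probes floored, 3 without scaling, 3 with control-probe scaling and 2 in the others. Of all miRNAs measured, 11.2% were at least 1.5-fold higher as reported, 78.7% without scaling, 54.8% with control-probe scaling, 25.4% with the gene-level signal, 16.4% of 281 in the value table, 6.6% with median scaling and 3.55% with normexp. Quantile normalization, the median over spots, flagged spots kept, the brightest probe, the sum of probes, the strictest filter on dim probes and GC correction moved no member by more than the SD between spots. Normexp draws dim signals together by its offset, and with it all 3 members stayed above 0. The cause of the reversal of miR-29b-3p with the gene-level signal was not tested. Sham signals of 27.7 and 32.0 units limit miR-29c-3p. No paired analysis was possible because there was 1 array per group.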
